A study of Mus musculus with 8 samples.

Results

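The genes described here encode the core of the spliceosome and the proteins that steer it: 90 of the 18257 genes in the deposited table, chosen by symbol. The rule took the Snrp genes from Snrpa to Snrpg (leaving out Snrpn) and the Snrnp, Sf3a, Sf3b, Prpf, Lsm and U2af genes of the small nuclear ribonucleoproteins (snRNPs), the Srsf and Tra2 genes of the SR proteins, and the Hnrnp genes. The rule used no measured value, but the choice was made with earlier results of these data known. They were grouped by symbol and known role into 20 Sm and LSm genes, 36 genes of snRNP-specific, U2AF and other Prpf proteins, 13 SR protein genes and 21 hnRNP genes.

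The RNA came from wild-type mouse morulae, the compacting embryos that precede the blastocyst. Control embryos (4 libraries) were kept in KSOM, an embryo culture medium, with 0.1% DMSO, and treated embryos (4 libraries) in KSOM with 2 µM A485, an inhibitor of the histone acetyltransferases p300 and CBP. The drug was dissolved in DMSO, and the labels do not give the DMSO content of the A485 medium. Culture with either agent began at the 4-cell stage and is described as running to the blastocyst, while the samples are labelled morula. Each library pooled 3 embryos without zona pellucida, and its polyadenylated RNA was reverse transcribed, preamplified and made into a library with a transposase. Nothing says that the pools were of different litters or days, so the p-values measure the spread between these pools only.

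A spliceosome is built anew on each intron. The U1 snRNP recognises the 5′ splice site, U2AF binds the 3′ splice site and recruits the U2 snRNP to the branch point, and the tri-snRNP of U4, U6 and U5 then joins before catalysis. Sm proteins form a ring on the U1, U2, U4 and U5 snRNAs and LSm proteins a ring on U6 snRNA. SR proteins mostly promote the use of exons they bind, hnRNPs often oppose it, and many genes of both families adjust their own mRNA through unproductive splicing.

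Library totals ranged from 23641779 to 25677692 estimated counts. Along the first principal component of all genes, which held 73.1% of the variance, the control libraries lay apart from the A485 libraries. The second, with 8.9%, separated A485 replicates 1 and 2 (57.04 and 36.69) from replicates 3 and 4 (-37.15 and -39.19). Control replicates 1 to 4 lay closer together on it, at 4.95, -1.24, -10.48 and -10.61. All 10 morula markers were measured above 0, with summed levels of 1453 to 1720 TPM in controls and 1395 to 3077 TPM in A485 libraries. Of these markers 7 fell (Pou5f1, Nanog, Cdx2, Gata6, Tfap2c, Tead4 and Sall4), Krt8 and Krt18 rose and Cdh1 did not pass (edgeR), so the sum hides changes in both directions. The 8 cumulus and granulosa markers summed to at most 0.11 TPM in a control library and to 0.82 to 3.04 TPM in A485 libraries. The 9 oocyte and maternal markers summed to 20.07 to 25.51 TPM in controls and to 12.22 to 22.84 TPM with A485, and the 5 sperm markers to 0.29 to 2.18 TPM and 1.02 to 2.5 TPM. None of these lists was at 0 throughout, and their part in the results was not tested. In pooled embryos, fewer cells of a type and less RNA per cell cannot be told apart.

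Most genes of the U2 snRNP were lower in A485 morulae, while the SR protein and hnRNP genes showed few changes. Of 11 genes for U2-specific proteins, 10 fell, to between 44.9% and 78.7% of control. Across all 90 genes, 89 passed the filter on low counts and were tested, and 31 fell, 12 rose and 46 did not pass the threshold (edgeR quasi-likelihood test, Benjamini-Hochberg adjusted p under 0.05), while 54.7% of all genes tested passed in either direction. The share that fell was 34.8%, against 25.0% of all 12936 genes tested, and the share that rose was 13.5%, against 29.7%. The median log2 fold change was -0.26 over the splicing genes and 0.09 over all genes tested.

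Splicing genes moved by less than the strongest changes in these embryos. Of the 89 splicing genes tested, 7 fell and 2 rose at least 2-fold past the threshold, out of 31 falls and 12 rises. Of all 12936 genes tested, 14.3% fell and 22.2% rose that far, 1844 of 3238 falls and 2874 of 3839 rises. The A485 and control libraries did not overlap for 40 of the 89 genes, 29 lower and 11 higher with A485, while 51.5% of all genes showed no overlap (24.6% lower, 26.9% higher).

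The balance depends on the scaling. TMM factors, which correct each library size for composition, were 0.877 to 0.935 in controls and 0.996 to 1.213 in A485 libraries. With total counts as library sizes, the median over all genes moved from 0.09 to 0.37, and the share of rises among all genes called moved from 54.2% to 68.2%. On that scale 16 splicing genes fell and 21 rose, beside 17.8% and 38.1% of all genes, and the splicing median was 0.03. With RLE factors the medians were -0.28 and 0.07. A change of scaling shifts all genes by nearly the same amount, so the gap between these medians could hardly change with it. That the splicing median lay below in all 3 scalings is therefore no added support. The 16 that fell with total counts also fell in each of the 17 alternative settings tried and were Lsm5, Lsm12, Snrpd3, Snrpe, Snrpa1, Snrpb2, Sf3a2, Sf3b4, Sf3b5, Sf3b6, U2af1, U2af1l4, Prpf31, Prpf38a, Snrnp25 and Hnrnpf. Likewise Lsm10, Lsm14a, Prpf4b, Srsf4, Hnrnph3, Hnrnpr and Hnrnpul2 rose in all of them.

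**Figure D1:**
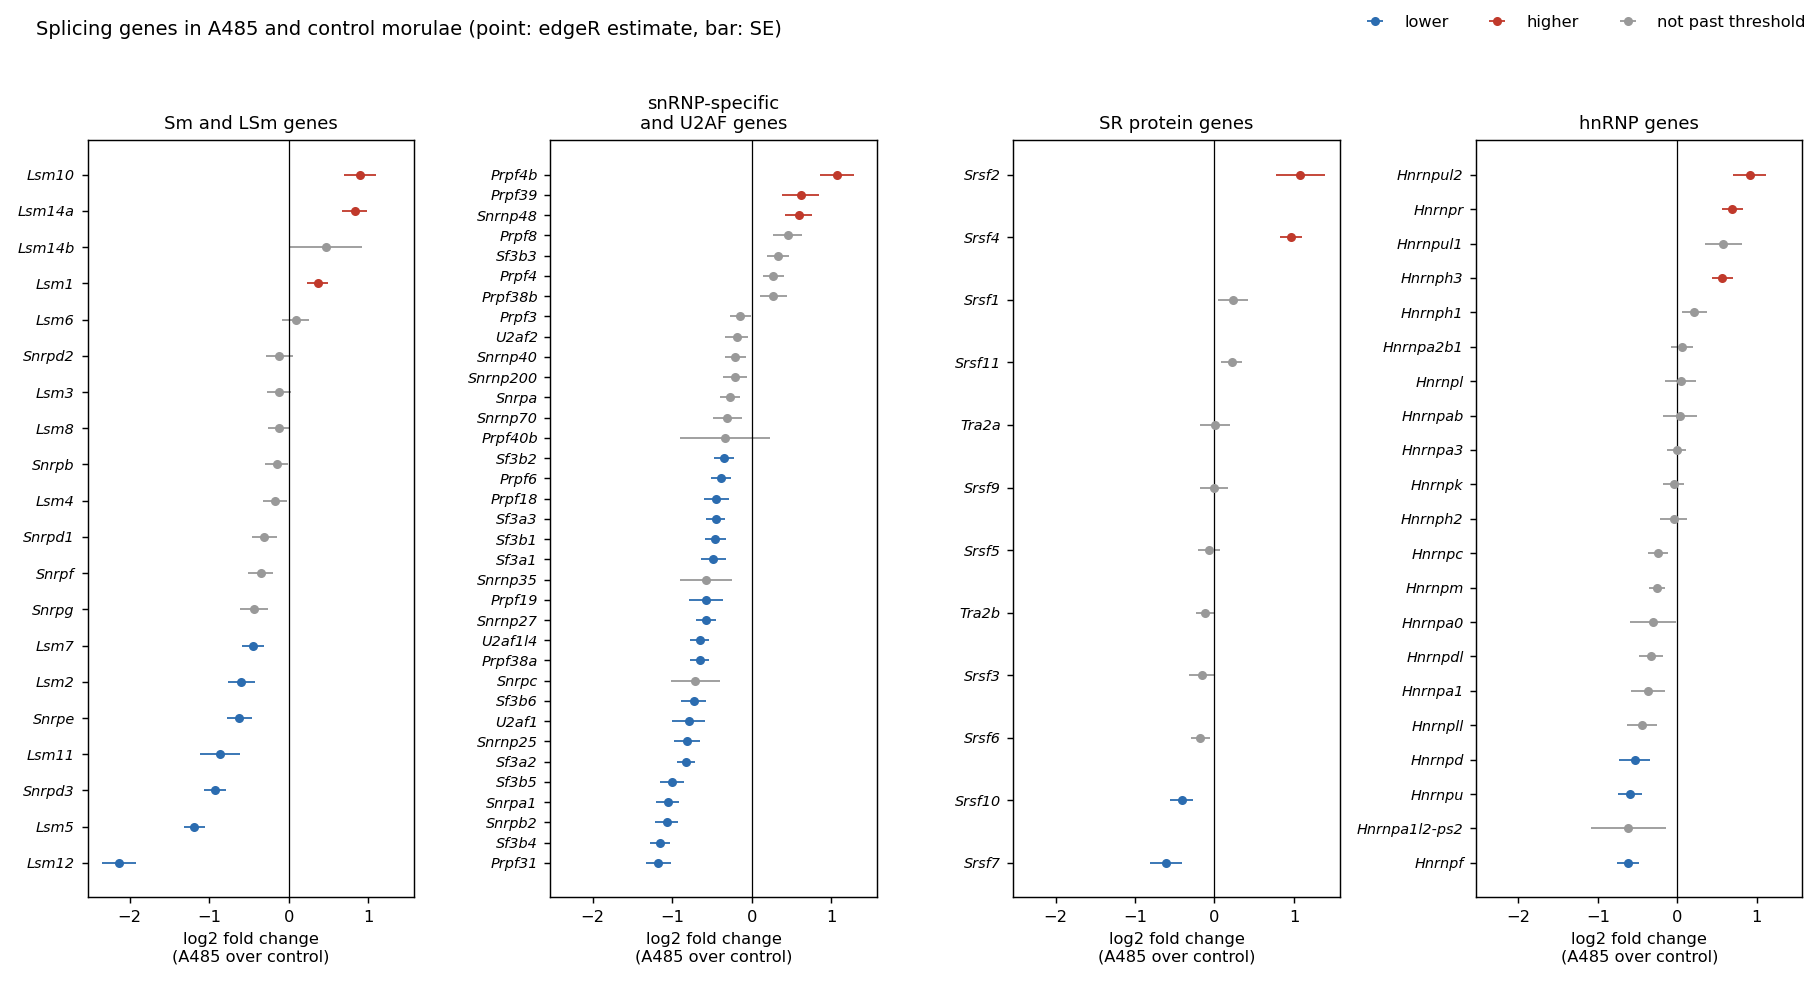
Log2 fold change of A485 over control (x axis) for the splicing genes reported here in their 4 classes, with points for the edgeR estimate, bars for 1 SE, blue for genes past the threshold and lower, red for past and higher, and grey for the rest. The snRNP-specific class has 19 genes in blue, and the SR and hnRNP classes lie around 0.

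The promoters of 5 genes that fell in every setting are shown because they let the sequence near the start of the U2 genes be read beside those of a U6-ring and an Sm gene; each is the 200 bases before the RefSeq transcript start (GRCm38.p6), a window in which RefSeq places no gene. They are Snrpb2 (chr2:143062869-143063068, plus strand), Sf3b6 (chr12:4817408-4817607, plus strand), Snrpa1 (chr7:66060136-66060335, plus strand), Lsm5 (chr6:56704700-56704899, minus strand) and Snrpe (chr1:133610281-133610480, minus strand). Each is written 5′ to 3′ on the gene's strand, with every match to the motifs named next in capitals.
Snrpb2: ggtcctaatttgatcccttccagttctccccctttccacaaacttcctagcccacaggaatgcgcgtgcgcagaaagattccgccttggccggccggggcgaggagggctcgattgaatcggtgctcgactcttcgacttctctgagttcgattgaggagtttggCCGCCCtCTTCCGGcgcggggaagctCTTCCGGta
Sf3b6: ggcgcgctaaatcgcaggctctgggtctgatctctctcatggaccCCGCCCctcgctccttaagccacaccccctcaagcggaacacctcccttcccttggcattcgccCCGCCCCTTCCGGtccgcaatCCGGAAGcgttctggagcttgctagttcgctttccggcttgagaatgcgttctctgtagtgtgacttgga
Snrpa1: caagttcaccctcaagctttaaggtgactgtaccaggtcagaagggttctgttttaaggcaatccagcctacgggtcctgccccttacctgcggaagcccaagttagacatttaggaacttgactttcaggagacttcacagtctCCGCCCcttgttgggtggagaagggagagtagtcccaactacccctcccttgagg
Lsm5: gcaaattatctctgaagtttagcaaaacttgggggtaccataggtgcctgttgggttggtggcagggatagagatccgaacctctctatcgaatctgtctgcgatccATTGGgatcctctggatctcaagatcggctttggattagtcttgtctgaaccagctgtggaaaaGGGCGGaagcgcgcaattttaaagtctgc
Snrpe: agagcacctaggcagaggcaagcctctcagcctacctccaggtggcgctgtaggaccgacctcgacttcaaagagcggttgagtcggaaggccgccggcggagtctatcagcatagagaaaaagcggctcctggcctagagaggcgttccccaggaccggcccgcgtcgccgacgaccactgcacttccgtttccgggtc

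In these windows the letters CTTCCGG or CCGGAAG mark the ETS motif, CCGCCC or GGGCGG the GC box, and CCAAT or ATTGG the CCAAT box. Snrpb2 and Sf3b6 each held 2 ETS matches within the 100 bases nearest the start, and in Sf3b6 1 ETS match directly adjoins a GC box. Snrpa1 held only a GC box, Lsm5 a CCAAT box and a GC box, and Snrpe none of the motifs searched.

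RefSeq promoters matched 77 of the 90 genes, and both strands of the 250 bases before the start were searched for 7 motifs. The ETS letters lay in 12 of 27 matched promoters of genes that fell (44.4%), 2 of 9 of those that rose (22.2%) and 7 of 40 of those that did not pass (17.5%). Over all 10271 tested genes with a promoter the share was 15.6%, and 464 of the 2574 of them that fell held the letters. The GC box lay in 21 of the 27 (77.8%), in 7 of the 9 that rose (77.8%) and in 25 of the 40 that did not pass (62.5%). Over all genes its share was 62.5%, and over all genes that fell 57.0%. The CCAAT box lay in 11 of the 27 (40.7%), against 41.4% of all. The NRF1 motif (GCGCATGC or GCATGCGC) lay in 3 of the 27 (11.1%, all genes 5.12%), the CRE (TGACGTCA) in 1 (3.7%, all genes 3.04%) and the E-box (CACGTG) in 2 (7.41%, all genes 9.78%). The TATA box (TATAAA or TTTATA) lay in none of the 27, in 2 of the 9 that rose, and in 7.93% of all. These are matches of letters, not measured binding sites, and a gene pair that shares a promoter window is counted for each gene. Among the genes whose promoters were not matched were Hnrnpll, Hnrnpul2, Lsm1, Lsm12, Lsm4, Prpf18, Sf3b4, Sf3b5, Snrnp40, Snrpb, Snrpd1 and U2af2.

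Levels below are CPM, counts scaled to one common library size after the TMM correction, given for replicates 1 to 4 in order. The U2 snRNP binds the branch point through SF3B, with SF3A bridging it to the rest of the particle. Sf3b4 (NCBI gene 107701, chr3:96172506-96177564 in GRCm38.p6), an RNA-binding SF3B subunit, stood at 388.5, 433.4, 396.2 and 407.3 CPM in controls and at 202.0, 163.9, 164.3 and 200.4 CPM with A485. Every A485 library was below every control library. Its log2 fold change was -1.15 ± 0.12 (SE, n = 4 and 4, edgeR adjusted p = 5.74e-05). Sf3b5 (gene 66125, chr10:13008450-13009183), a small SF3B subunit, stood at 309.4, 283.9, 274.3 and 334.7 CPM against 191.9, 143.6, 134.0 and 130.3 CPM. It fell 2.00-fold with no overlap (edgeR adjusted p = 0.000362).

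The genes of the proteins that define the U2 particle by binding U2 snRNA fell by the same order. Snrpa1 (gene 68981, chr7:66060336-66074587), which encodes the leucine-rich-repeat protein of U2, went from 429.0, 398.0, 448.3 and 443.5 CPM to 266.6, 183.1, 180.2 and 196.7 CPM. Snrpb2 (gene 20639, chr2:143063069-143072052), which encodes its RNA-binding partner, went from 168.6, 162.7, 176.3 and 174.5 CPM to 97.02, 83.48, 64.54 and 79.93 CPM. The control libraries of both genes lay within a narrow band, and A485 replicate 1 was the highest of the treated libraries for both. Their log2 fold changes were -1.06 ± 0.15 and -1.07 ± 0.14 (edgeR adjusted p = 0.000244 and 0.000169), and both promoters are among those printed above.

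The 3 SF3A genes all fell: Sf3a2 from 117.6 ± 5.23 to 66.5 ± 3.35 CPM (mean ± SD, n = 4), Sf3a1 from 108.9 ± 12.5 to 78.0 ± 14.2 CPM and Sf3a3 from 215.1 ± 22.3 to 157.2 ± 12.9 CPM. Sf3b6, which encodes the branch-point-contacting p14, fell to 60.3% of control (log2 fold change -0.73 ± 0.15, edgeR adjusted p = 0.00247). Sf3b1 encodes the large scaffold subunit that is a frequent target of mutation and of splicing inhibitors. It stood at 196.3, 205.9, 166.3 and 202.4 CPM in controls and at 143.0, 159.4, 120.1 and 139.2 CPM with A485 (log2 fold change -0.46 ± 0.13, edgeR adjusted p = 0.0126). The groups were apart, but by a small margin. Sf3b2 had a log2 fold change of -0.35 ± 0.12 (edgeR adjusted p = 0.0336).

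Sf3b3 was the one U2-specific gene that did not fall. It stood at 72.62, 85.37, 76.55 and 65.78 CPM in controls and at 89.14, 84.91, 91.05 and 113.8 CPM with A485 (log2 fold change 0.34 ± 0.14, edgeR adjusted p = 0.0663), and the groups overlapped. Total-count scaling kept the falls of 6 of the 10 genes, namely Snrpa1, Snrpb2, Sf3a2, Sf3b4, Sf3b5 and Sf3b6, and there Sf3b3 rose (log2 fold change 0.62, edgeR adjusted p = 0.00389). The remaining 4 then lay between -0.21 and -0.06. Control replicate 2 carried part of the count: without it 7 of the 11 genes fell, Sf3b1 having an adjusted p of 0.054, and Sf3b3 rose (adjusted p = 0.039). Of the SF3A and SF3B genes 8 of 9 fell with all libraries and 5 without that library. Without that library Sf3a1 and Sf3b2 had edgeR adjusted p-values of 0.0936 and 0.0903, and they also lost their calls without other single libraries (up to 0.0603 and 0.0779).

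**Figure D2:**
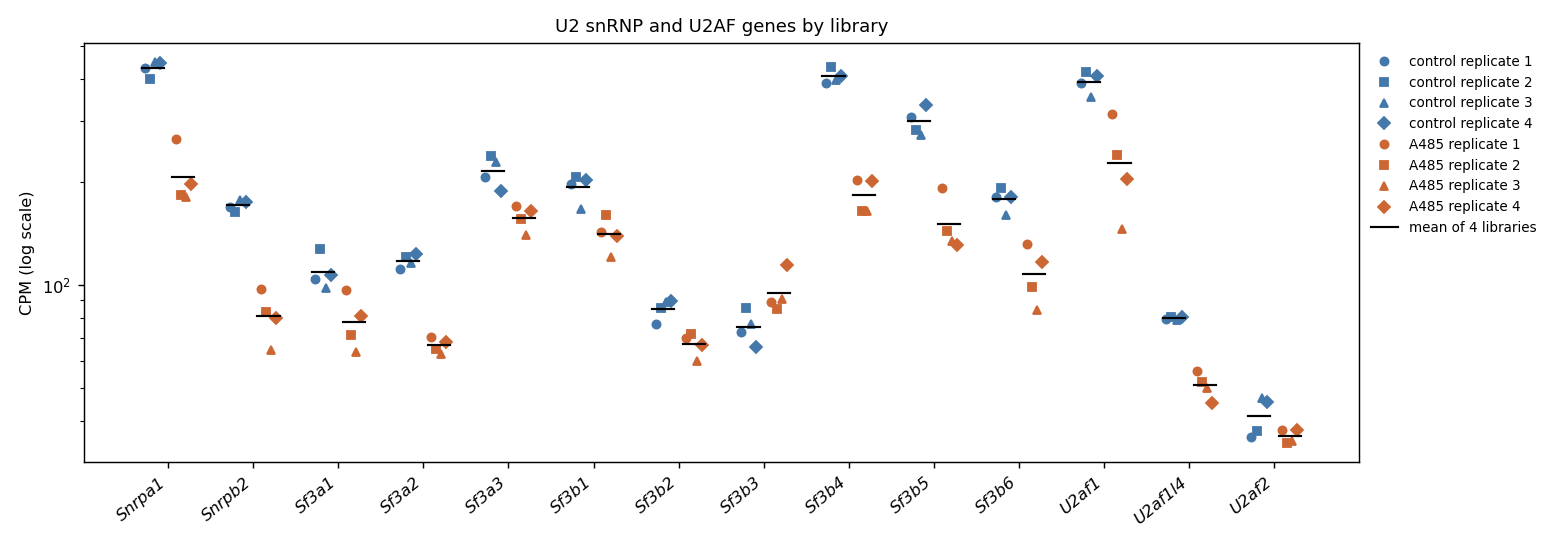
CPM on a log axis of the U2-specific and U2AF genes, with a marker for each of 4 control libraries (blue) and 4 A485 libraries (orange) and a black line for the mean. For Snrpa1, Snrpb2, Sf3b4 and Sf3b5 the treated libraries lie well below the controls, and for Sf3b3 and U2af2 the groups overlap.

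U2AF hands the 3′ splice site to U2, its small subunit reading the AG and its large subunit the polypyrimidine tract. U2af1 (gene 108121, chr17:31647081-31659148), the small subunit, stood at 387.6, 419.8, 353.3 and 406.3 CPM in controls and at 316.1, 239.5, 145.7 and 204.0 CPM with A485. All 4 treated libraries were lower, with an SD of 71.3 CPM beside 28.8 CPM in controls. The log2 fold change was -0.79 ± 0.21 (edgeR adjusted p = 0.00829). Its relative U2af1l4 went from 78.6 to 80.6 CPM in controls to 45.2 to 55.8 CPM (log2 fold change -0.65 ± 0.12, edgeR adjusted p = 0.00118). U2af2, the large subunit, did not pass: 35.80, 37.38, 46.54 and 45.46 CPM stood beside 37.72, 34.42, 35.01 and 37.73 CPM (log2 fold change -0.19 ± 0.14, edgeR adjusted p = 0.271).

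None of the 3 U1-specific genes passed the threshold. Snrnp70, which anchors U1 at its first stem loop, had a log2 fold change of -0.30 ± 0.18 and Snrpa, which binds another stem loop, one of -0.27 ± 0.13 (edgeR adjusted p = 0.177 and 0.101). Snrpc, a zinc-finger protein that stabilises the 5′ splice site pairing, varied widely: 884.5, 631.7, 646.8 and 745.9 CPM in controls and 657.7, 541.7, 192.2 and 391.0 CPM with A485. A485 replicate 1 lay inside the control range and replicate 3 far beneath it. Its log2 fold change of -0.71 ± 0.31 had an edgeR adjusted p of 0.0798, which became 0.024 without A485 replicate 1. Leaving out A485 replicate 4 likewise brought Snrpa to 0.0236.

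Among 8 genes of the U4/U6, U5 and tri-snRNP proteins 3 fell (37.5%, all genes 25.0%) and none rose (all genes 29.7%). Prpf31 (gene 68988, chr7:3629985-3642485), which holds the U4/U6 duplex together and whose human form is mutated in retinitis pigmentosa, stood at 164.7, 204.5, 182.3 and 177.9 CPM in controls. With A485 it stood at 84.22, 81.84, 59.30 and 98.08 CPM, all below the lowest control. Its log2 fold change of -1.17 ± 0.16 (edgeR adjusted p = 0.000226) was the largest fall among the 90 genes outside the LSm family. Snrnp27 fell to 67.2% of control (log2 fold change -0.57 ± 0.13, edgeR adjusted p = 0.0034) and Prpf6, a U5 protein, to 76.4% (-0.39 ± 0.13, adjusted p = 0.0237). The Prpf6 call was lost without any of 4 single libraries, the highest adjusted p being 0.0862 without control replicate 2.

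The genes of the 2 large proteins at the U5 catalytic centre did not pass. Prpf8, the scaffold of the active site, stood at 27.61, 38.01, 31.88 and 37.30 CPM in controls and at 49.99, 45.91, 33.62 and 55.06 CPM with A485. The groups overlapped through A485 replicate 3 alone, and without it the gene rose (edgeR adjusted p = 0.0128 against 0.0552 with all libraries, log2 fold change 0.45 ± 0.18). Snrnp200, the helicase that unwinds U4/U6, had a log2 fold change of -0.21 ± 0.15 (edgeR adjusted p = 0.275). Prpf3, Prpf4 and Snrnp40 lay between -0.20 and 0.28.

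The other Prpf genes split, 3 of 8 in each direction (37.5%, beside 29.7% higher and 25.0% lower of all genes tested). Prpf4b (gene 19134, chr13:34874820-34906064), a kinase that phosphorylates tri-snRNP proteins, rose from 10.26, 7.539, 9.376 and 7.654 CPM to 13.38, 15.55, 22.66 and 21.80 CPM. The groups were apart, with A485 replicates 3 and 4 highest, and the rise of 2.11-fold was, with that of Srsf2, 1 of 2 rises of at least 2-fold (log2 fold change 1.07 ± 0.22, edgeR adjusted p = 0.00209). Prpf38a, which the spliceosome needs for its activation, went from 162.0 ± 14.5 to 103.1 ± 8.43 CPM (log2 fold change -0.65 ± 0.12, edgeR adjusted p = 0.00122). Prpf39, which is U1-associated, passed with overlapping groups (0.62 ± 0.23, adjusted p = 0.0436). Its call was lost without any of 7 single libraries, at edgeR adjusted p-values of up to 0.127. Prpf18, a second-step factor, and Prpf19, the ubiquitin ligase of the Prp19 complex, fell to 73.6% and 67.2% of control, calls lost without any of 5 and 6 single libraries (up to 0.128 and 0.107). Of the 4 rises in the snRNP-specific class 2 were left when control replicate 1 or 4 was dropped, and also when A485 replicate 4 was.

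The minor spliceosome, which removes the rare U12-type introns, had 3 genes among the members. Snrnp25 fell from 129.7 ± 13.01 to 73.8 ± 14.5 CPM (log2 fold change -0.82 ± 0.16, edgeR adjusted p = 0.00178), and Snrnp48 rose from 25.3 ± 1.81 to 38.2 ± 7.51 CPM (0.59 ± 0.17, adjusted p = 0.0122). Snrnp35 did not pass (-0.57 ± 0.33, adjusted p = 0.162).

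All 7 Sm ring genes had log2 fold changes below 0, and Snrpd3 and Snrpe fell (28.6%, all genes 25.0%). Snrpd3 (gene 67332, chr10:75518042-75535440) stood at 269.5, 252.7, 258.6 and 273.7 CPM in controls and at 168.2, 123.5, 115.4 and 147.6 CPM with A485. That is 52.6% of control with no overlap (log2 fold change -0.93 ± 0.14, edgeR adjusted p = 0.000369). Snrpe went from 443.5, 459.9, 373.4 and 433.8 CPM to 349.4, 257.5, 220.6 and 284.1 CPM (log2 fold change -0.62 ± 0.16, adjusted p = 0.00644). Snrpb, Snrpd1, Snrpd2, Snrpf and Snrpg had log2 fold changes from -0.43 to -0.12.

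Among single libraries, leaving out A485 replicate 1 moved the count of Sm falls most. Leaving out control replicate 3 added Snrpg alone (edgeR adjusted p = 0.0449). In A485 replicate 1 Snrpb stood at 1527 CPM, above all 4 controls (1267 to 1437 CPM), while the other A485 libraries held 1066 to 1152 CPM. Without A485 replicate 1 all 7 Sm genes fell, at edgeR adjusted p-values for the 5 added genes of 0.0035 (Snrpg) to 0.0406 (Snrpb). The falls among the Sm and LSm genes then rose from 7 to 12. A485 replicate 1 was the highest treated library for 24 of the 31 splicing genes that fell (77.4%) and replicate 3 the lowest for 23 (74.2%). Over all 3238 genes that fell these numbers were 1619 and 1456 (45.0%).

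Per length, the Sm mRNAs Snrpg and Snrpb were the most abundant of the 90 genes. Snrpg stood at 2159 TPM in controls and 1981 TPM with A485, and Snrpb at 1367 and 1523 TPM. In controls Snrpc and Sf3b5 led the snRNP-specific class at 1166 and 520.3 TPM, Srsf7 and Srsf3 the SR class at 285.1 and 204.9 TPM, and Hnrnpa1 and Hnrnpa2b1 the hnRNP class at 585.8 and 474.6 TPM. TPM shares out a fixed total without the TMM correction, so a gene can be level or higher in TPM and lower in CPM. The 90 genes together made up 18050 ± 213 TPM in controls and 16660 ± 1080 TPM with A485 (mean ± SD, n = 4), or 1.81% and 1.67% of the mRNA measured. The groups overlapped, A485 replicate 1 being at 18090 TPM beside 17920 to 18370 TPM in controls. The snRNP-specific class went from 4525 ± 146 to 3390 ± 405 TPM, with the lowest control at 4317 TPM and the highest A485 library at 3757 TPM. The SR class went from 1001 ± 68.5 to 1118 ± 39.0 TPM. Its groups barely separated, the highest control being at 1062 TPM and the lowest A485 library at 1068 TPM. The hnRNP class went from 2659 ± 112 to 2868 ± 77.3 TPM with overlapping groups, control replicate 3 being at 2817 TPM and A485 replicate 3 at 2762 TPM.

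The LSm genes held the largest fall among the 90 genes and several rises. In the ring of LSm2 to LSm8, which binds the end of U6 snRNA, 3 of 7 genes fell (42.9%, all genes 25.0%). Lsm5 (gene 66373, chr6:56701063-56704699) went from 133.5, 146.6, 137.5 and 139.6 CPM to 70.72, 59.26, 49.95 and 65.04 CPM. Its treated libraries sat at less than the lowest control by a wide gap (44.0% of control, log2 fold change -1.19 ± 0.14, edgeR adjusted p = 7.96e-05). Lsm2 fell to 66.1% of control (adjusted p = 0.0124) and Lsm7 to 73.3% (adjusted p = 0.0195), the latter lost without control replicate 2 (0.054) or A485 replicate 2 (0.051). Lsm3, Lsm4, Lsm6 and Lsm8 lay between -0.17 and 0.09 on the log2 scale.

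LSm genes outside that ring moved in both directions. Lsm12 (gene 268490, chr11:102162497-102186268), which is not a ring subunit of the spliceosome, stood at 154.2, 176.1, 144.5 and 168.7 CPM in controls and at 54.18, 34.24, 26.30 and 32.30 CPM with A485. This was the largest fall among the 90 genes, to 22.8% of control (log2 fold change -2.13 ± 0.21, edgeR adjusted p = 4.42e-05). Of the pair that replaces Sm subunits in the U7 snRNP of histone mRNA processing, Lsm10 rose and Lsm11 fell. Lsm10 (gene 116748, chr4:126096562-126098584) stood at 30.08, 21.04, 21.75 and 22.50 CPM against 34.48, 42.40, 40.08 and 60.79 CPM (log2 fold change 0.90 ± 0.20, edgeR adjusted p = 0.00378). Lsm11 went from 4.91 ± 0.97 to 2.70 ± 0.37 CPM (-0.86 ± 0.25, adjusted p = 0.0139).

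Lsm14a, a translational repressor of cytoplasmic P-bodies, rose from 9.028, 10.74, 12.08 and 11.37 CPM to 18.59, 19.75, 18.48 and 19.99 CPM (log2 fold change 0.83 ± 0.16, edgeR adjusted p = 0.00135). The treated libraries lay close together and apart from the controls. Lsm1, which replaces LSm8 in the cytoplasmic mRNA decay ring, had a log2 fold change of 0.37 ± 0.13 (adjusted p = 0.0396), a call lost without any of 6 single libraries (up to 0.123). Lsm14b, at about 1 CPM in both groups (0.86 ± 0.23 and 1.19 ± 0.56 CPM), did not pass.

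**Figure D3:**
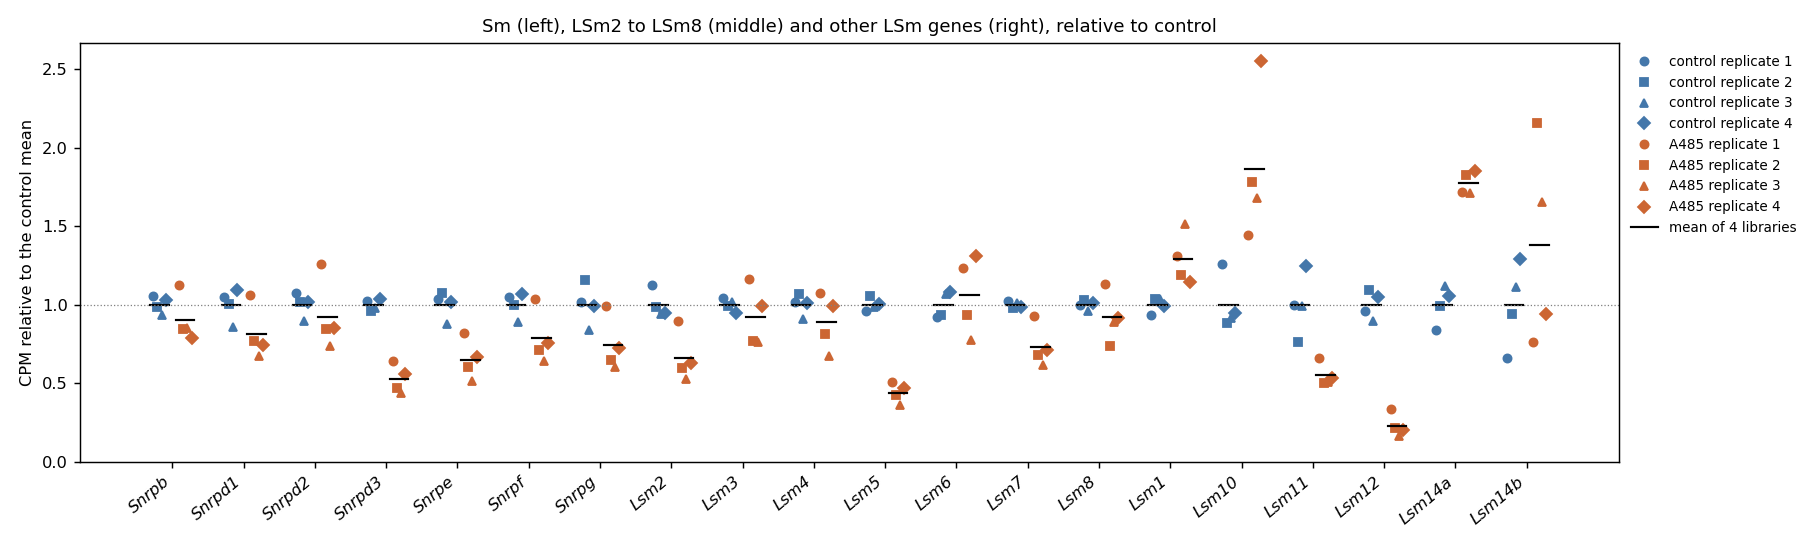
CPM of each Sm and LSm gene divided by its control mean (y axis, from 0), with a marker per library, blue for 4 controls and orange for 4 A485 libraries, and black lines for means. Lsm12 lies lowest at about 22.8% of control, Lsm10 and Lsm14a lie above 1, and A485 replicate 1 (circle) is above the other treated libraries for most Sm genes.

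The SR protein genes showed no common shift: of 12 tested, 2 rose, 2 fell and 8 did not pass. These shares, 16.7% in each direction, stand beside 29.7% higher and 25.0% lower of all genes tested. The median log2 fold change of the SR genes was -0.04. Srsf2 (gene 20382, chr11:116849897-116853675), which encodes the enhancer-binding protein SC35, stood at 49.41, 159.5, 75.05 and 71.77 CPM in controls and at 219.1, 168.1, 186.1 and 177.8 CPM with A485. Control replicate 2 stood close to the lowest treated library and the other 3 controls far below. The log2 fold change was 1.08 ± 0.31 (edgeR adjusted p = 0.0136), a call kept without any single library but not without A485 replicates 1 and 2 together or 3 and 4 together (adjusted p up to 0.0909). Its exons overlap those of Mettl23 and Mfsd11 on the other strand, and the sources used here do not give whether reads were counted by strand.

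Srsf4 (gene 57317, chr4:131873530-131901725) rose with far less spread. It stood at 16.25, 14.90, 15.42 and 14.61 CPM in controls and at 27.17, 29.12, 29.91 and 32.67 CPM with A485 (log2 fold change 0.96 ± 0.14, edgeR adjusted p = 0.000279). Both groups were tight and well apart. Its exons overlap the antisense transcript Gm12992. In all 28 of the 90 genes share exon bases with another annotated gene, among them Prpf31, Sf3a2, Snrpd3, Snrpa1, U2af1l4, Hnrnpu, Hnrnpr and Hnrnph3, and reads from such bases, like reads shared with pseudogene copies, may be split between genes.

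The 2 SR genes that fell did so with overlapping groups. Srsf7 (gene 225027, chr17:80200080-80207369), which links splicing to polyadenylation site choice and mRNA export, stood at 663.1, 742.2, 639.4 and 553.7 CPM in controls and at 594.6, 379.5, 292.5 and 430.9 CPM with A485. Only A485 replicate 1 reached the control range (log2 fold change -0.61 ± 0.20, edgeR adjusted p = 0.0257). Srsf10, a splicing repressor when dephosphorylated, had a log2 fold change of -0.41 ± 0.15 (adjusted p = 0.0345). Both calls depended on single libraries: that of Srsf7 needed control replicate 1 (0.0518 when left out), control replicate 2 (0.0896) and A485 replicate 2 (0.0656), and that of Srsf10 was lost without any of 6 libraries (up to 0.115). No SR gene fell under total-count scaling, where Srsf1 and Srsf11 rose as well (log2 fold change 0.50 for both, edgeR adjusted p = 0.0235 and 0.0114).

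The remaining SR genes lay within 0.24 of no change on the log2 scale. Srsf3, the smallest member and a close relative of Srsf7, had a log2 fold change of -0.16 ± 0.16, Srsf6 one of -0.18 ± 0.12 and Srsf1, the founding SR protein, one of 0.24 ± 0.19 (edgeR adjusted p = 0.409, 0.228 and 0.309). Tra2a and Tra2b, the SR-like pair that binds GAA-rich exons, had 0.01 ± 0.19 and -0.13 ± 0.11. Srsf12 was below the filter on low counts, with 1, 1, 1 and 2 counts in controls and 17, 9, 22 and 22 with A485. In the authors' deposited table its log2 fold change was 3.51 at a q-value of 0.000627.

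Of the 21 hnRNP genes 3 rose, 3 fell and 15 did not pass, with a median log2 fold change of -0.05. The 14.3% called in each direction stands beside 29.7% higher and 25.0% lower of all genes tested. Hnrnpf (gene 98758, chr6:117900340-117925622), which binds G-runs, stood at 837.1, 870.5, 809.5 and 836.8 CPM in controls and at 684.6, 507.5, 494.1 and 489.1 CPM with A485. The groups were apart, with A485 replicate 1 standing off from the other 3 (log2 fold change -0.63 ± 0.14, edgeR adjusted p = 0.00348). Hnrnpu, a nuclear matrix protein that coats chromatin-bound RNA, fell to 66.0% of control (-0.60 ± 0.15, adjusted p = 0.00742). Hnrnpd, the AU-rich element protein AUF1, fell to 68.9% (adjusted p = 0.0402), a call that needed control replicates 2 and 4 and A485 replicates 2 and 3 (up to 0.132 when 1 was left out).

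Hnrnpr, a close relative of hnRNP Q, rose from 41.22, 33.14, 39.13 and 36.46 CPM to 54.50, 62.08, 63.76 and 61.75 CPM (gene 74326, chr4:136310942-136345981; log2 fold change 0.69 ± 0.13, edgeR adjusted p = 0.00132). Each treated library was above each control. Hnrnph3 rose from 45.7 ± 5.86 to 67.7 ± 4.55 CPM (0.57 ± 0.14, adjusted p = 0.00535), and Hnrnpul2, at a low level, from 3.17 ± 0.37 to 5.95 ± 0.47 CPM (0.91 ± 0.21, adjusted p = 0.00464).

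Several other abundant hnRNP genes did not pass. Hnrnpk, a poly(C)-binding protein, stood at 1242 ± 99.5 CPM in controls and 1203 ± 129 CPM with A485 (log2 fold change -0.05 ± 0.13, edgeR adjusted p = 0.78). Hnrnpa2b1 had 0.06 ± 0.14 and Hnrnpc, which guards against inclusion of cryptic exons, -0.25 ± 0.13. Hnrnpa1, the classical antagonist of SR proteins, stood at 993.8, 1105, 939.1 and 1031 CPM against 1154, 783.9, 524.9 and 680.7 CPM. A485 replicate 1 exceeded every control and the other treated libraries lay below all of them, so the log2 fold change of -0.37 ± 0.21 (adjusted p = 0.164) became -0.63 (0.00488) without that library. The falls among hnRNP genes then numbered 6 in place of 3. Hnrnpa1l2-ps2, whose name marks a pseudogene, stood at 1.25 ± 0.25 and 0.81 ± 0.43 CPM, and reads of such copies can be exchanged with Hnrnpa1. The other 10 had log2 fold changes from -0.45 for Hnrnpll to 0.58 for Hnrnpul1, whose adjusted p of 0.0539 became 0.0101 without A485 replicate 1.

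**Figure D4:**
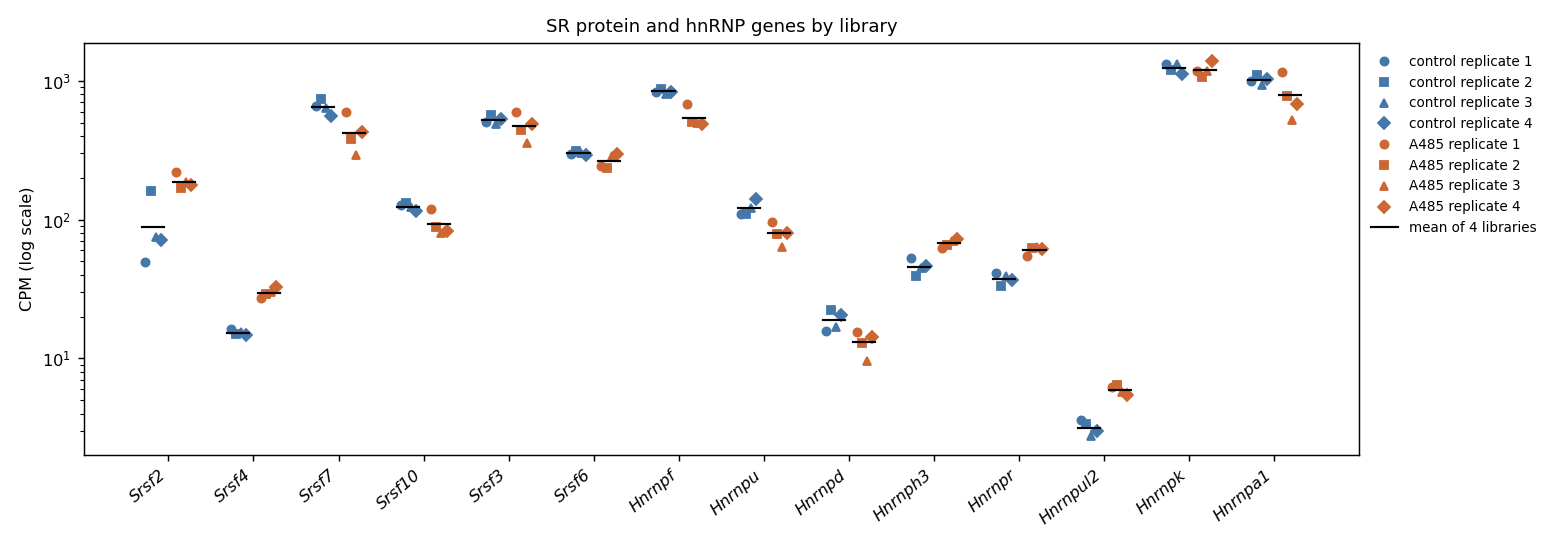
CPM on a log axis of SR protein and hnRNP genes, with a marker per library (blue for 4 controls, orange for 4 A485 libraries) and black lines for means. Srsf4, Hnrnpr, Hnrnph3 and Hnrnpul2 lie above their controls and Hnrnpf and Hnrnpu below, while Hnrnpk and Hnrnpa1 overlap.

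Apart from the effect of a pseudocount, ratios between homologous genes within a library do not depend on the scaling. The 12 pairs were compared on the log2 ratio of TPM + 0.1. None passed after adjustment over the 12 pairs (exact two-sided permutation test over 70 assignments, smallest possible p 0.0286). In that exact permutation test 1 pair separating alone would have an adjusted p of 0.343. Whether a pair could pass therefore depended on how many pairs separated together. For 5 pairs the groups did not overlap, each with p = 0.0286 and an adjusted p of 0.0686 in that exact permutation test. The ratio of Srsf4 to Srsf6, long SR proteins of similar make-up, went from -3.49, -3.72, -3.59 and -3.64 to -2.51, -2.35, -2.63 and -2.52, a difference of 1.11 ± 0.08 (SE). The ratio of the U1 gene Snrpa to its U2 homologue Snrpb2 rose 1.73-fold, from 0.88, 0.79, 0.66 and 0.69 to 1.30, 1.34, 1.73 and 1.84. Both sets of values were far apart compared with their spread.

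Srsf3 over Srsf7 had a difference of 0.50 ± 0.11, Hnrnpl over Hnrnpll one of 0.45 ± 0.14 and Prpf38a over Prpf38b one of -0.88 ± 0.17. In the other 7 pairs the groups overlapped, with differences, among them, of 0.12 ± 0.18 for Tra2a over Tra2b, 0.21 ± 0.19 for Srsf1 over Srsf9, -0.45 ± 0.23 for Hnrnpa1 over Hnrnpa2b1 and 0.31 ± 0.19 for Hnrnph1 over Hnrnph2. Hnrnpd over Hnrnpab had -0.54 ± 0.17 and Lsm14a over Lsm14b 0.53 ± 0.30. With a pseudocount of 1 TPM, 7 pairs passed at an adjusted p of 0.049 in the exact permutation test, among them the same 5 and Lsm14a over Lsm14b. Lsm14b averaged 0.345 TPM in controls and 0.61 TPM with A485, below that pseudocount. The ratio of this pair then mostly followed Lsm14a and was not free of the scaling.

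**Figure D5:**
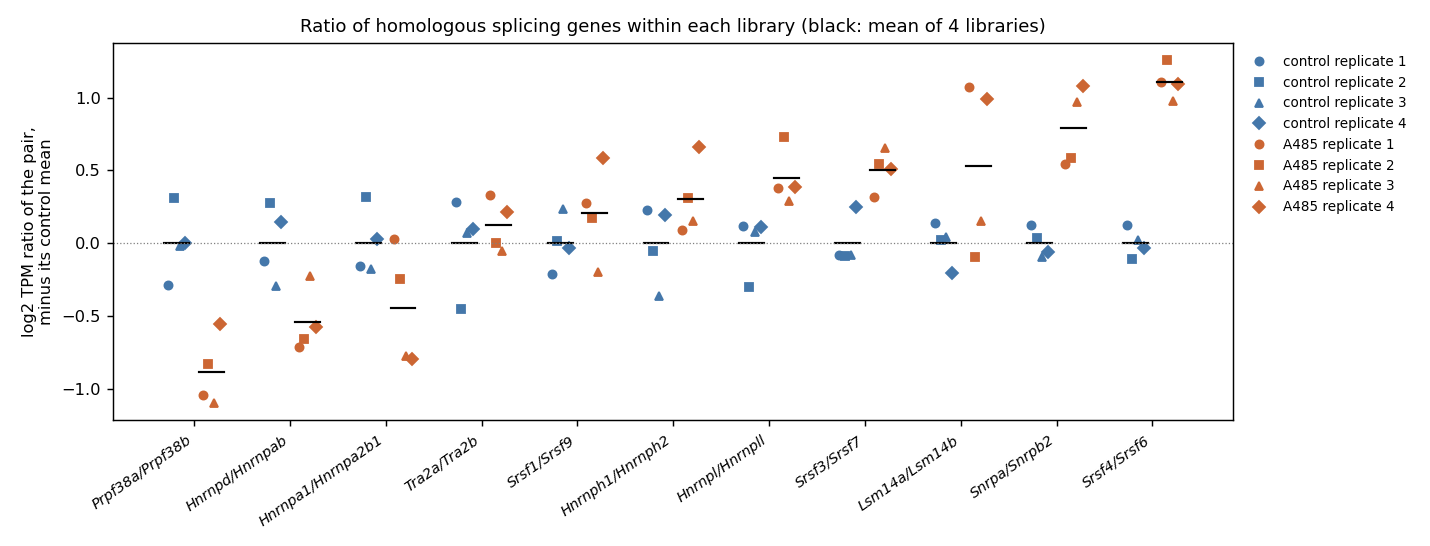
Log2 TPM ratio of the homologous pairs reported here in each library, minus the pair's control mean (y axis), with a marker per library (blue for 4 controls, orange for 4 A485 libraries) and black lines for group means. Srsf4 over Srsf6 stands highest at a difference of 1.11 and Prpf38a over Prpf38b lowest at -0.88.

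The rest of the splicing pathway was read from lists of 143 other genes, of which 139 were tested: 26 rose and 51 fell, with a median log2 fold change of -0.24. These shares, 18.7% higher and 36.7% lower, stand beside 29.7% and 25.0% of all genes tested. Of 19 genes that build snRNPs, 12 fell and 1 rose, among them Clns1a, the pICln chaperone of Sm proteins, from 432.3 ± 33.2 to 102.0 ± 15.4 CPM (log2 fold change -2.08 ± 0.14, edgeR adjusted p = 8.65e-06), and Smn1, the gene of the SMN complex, from 226.4 ± 22.7 to 84.1 ± 18.9 CPM (-1.43 ± 0.17, adjusted p = 0.000107). Tgs1, which methylates the cap of snRNAs, rose (1.08 ± 0.26, edgeR adjusted p = 0.00552). Its A485 replicate 3 stood at 11.67 CPM beside 27.24 to 28.02 CPM in the other 3. Of 20 genes of the Prp19 complex and activated spliceosome 13 fell, Cdc5l from 258.5 ± 21.6 to 57.2 ± 14.8 CPM (-2.18 ± 0.18, adjusted p = 1.88e-05). Its single rise, Cwc22, came from A485 replicates 1 and 2 (160.5 and 134.1 CPM) while replicates 3 and 4 held 27.42 and 31.19 CPM beside 18.32 to 31.44 CPM in controls.

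The other lists of core factors were small. Among 16 other U2, U5 and tri-snRNP genes 7 fell and none rose, including Phf5a, the SF3B subunit outside the symbol rule, from 496.4 ± 39.1 to 240.7 ± 41.0 CPM (log2 fold change -1.04 ± 0.14, edgeR adjusted p = 0.000232). The exon junction complex had 4 falls and 2 rises among 10, with its core gene Rbm8a at -1.47 ± 0.14, the helicases and second-step factors 4 falls and 1 rise among 14 (Dhx16 at -1.08 ± 0.25, Ddx42 at 0.70 ± 0.17), and the minor spliceosome 3 falls and 1 rise among 9 (Zmat5 at -1.70 ± 0.19). The shares that fell among the helicases (28.6%) and the minor spliceosome genes (33.3%) were near the 25.0% of all genes. With total-count scaling the 139 genes held 40 rises and 40 falls, beside 38.1% and 17.8% of all genes, with 10 falls in snRNP assembly and 8 in the Prp19 complex. Without control replicate 3 the 26 rises became 17. Some of the rises in these lists depended on single libraries. That of the minor spliceosome, Zrsr2 (0.41 ± 0.15, edgeR adjusted p = 0.042), was lost without any single library but A485 replicate 1, and those of the exon junction complex numbered 1 without control replicate 1, 3 or 4. In the Prp19 list no gene rose when control replicate 2, 3 or 4 was left out, nor on leaving out A485 replicate 1 or 2, and among the helicases 2 rose without control replicate 4 or A485 replicate 3.

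Of 27 other splicing regulators 13 rose (48.1%, against 29.7% of all genes) and 3 fell (11.1%, against 25.0%), with a median log2 fold change of 0.33. Mbnl3, a muscleblind protein, rose from 3.71 ± 1.30 to 39.2 ± 38.7 CPM (3.40 ± 0.67, edgeR adjusted p = 0.00257), a mean set mostly by A485 replicate 3 at 95.92 CPM, and Esrp2, an epithelial regulator, fell (-1.12 ± 0.19, adjusted p = 0.00078). Without A485 replicate 1 the falls numbered 7. Among 9 kinases and import factors of SR proteins 3 rose and 2 fell: Clk4, an SR protein kinase, went from 12.51, 15.94, 12.88 and 13.96 CPM to 35.54, 38.01, 60.53 and 55.51 CPM (1.78 ± 0.20, adjusted p = 8.4e-05), and Dyrk3, which dissolves nuclear speckles, fell (-1.29 ± 0.14, adjusted p = 6.23e-05). Among 15 SR-related genes 4 rose and 3 fell, with Rsrp1 at 1.78 ± 0.19 and Luc7l, a U1-associated protein, going from 63.8 ± 9.57 to 31.9 ± 7.28 CPM. The shares that rose, 33.3% of the kinases and import factors and 26.7% of the SR-related genes, were near the 29.7% of all genes. The 4 rises became 2 without control replicate 1 or 3 or A485 replicate 4.

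The relation of transcript length to the changes differed between the classes. Across the 36 snRNP-specific and U2AF genes, Spearman's rho between log2 fold change and median annotated transcript length was 0.46, and across 88 splicing genes it was 0.25, against 0.08 across 12522 tested genes. It was 0.12 across the 20 Sm and LSm genes, -0.245 across 12 SR genes and 0.179 across 20 hnRNP genes. These are correlations across genes that share the same 8 libraries. Among splicing genes with transcripts under 1000 bases 10 of 20 fell and 1 rose, beside 31.9% that fell and 28.3% that rose of all genes of that length. From 2000 to 3000 bases 2 of 20 fell and 4 rose, beside 23.8% and 29.0% of all genes. At 3000 bases or more 9 of 19 fell and 3 rose, beside 661 and 1175 of 3675 among all genes, so short transcripts were not the only ones to fall. Among these 9 is Sf3b5, with a median annotated length of 3841 bases, while its RefSeq coordinates given above span under 1000 bases. Its length is therefore doubtful, here and in the correlations. The part of length in the results was not tested.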

How the data were processed

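Polyadenylated RNA of pooled mouse morulae was measured in 8 libraries, 4 controls and 4 with A485. The submitters' processing notes list the build GRCm38.p6 and the tools DESeq2 1.40.2, RSEM 1.2.28 and HISAT2 2.2.1. The sources used here do not give strandedness. Per the file headers, the deposited table holds the authors' estimated counts and TPM values per library and their log2 fold change with its p-value and q-value per gene. Of the estimated counts 18.2% were not whole, and they were rounded. Library totals of at least 23641779 leave sampling noise small for most members; copies made by PCR cannot be told from separate molecules.

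Genes were tested here with edgeR 4.0.16 in R 4.3.3 (filterByExpr, TMM, robust quasi-likelihood fit on group alone). P-values were adjusted by Benjamini-Hochberg across the 12936 genes tested, and 0.05 was the threshold. The SE of a log2 fold change was derived from its F statistic. Ratios of homologous pairs used the authors' TPM plus 0.1 and an exact permutation test. Motifs were searched in RefSeq promoters, and transcript lengths and exon overlaps came from the gene annotation given. The scripts were tested on simulated data.

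Named in each class were up to 3 rises and 3 falls of largest size with average log2 CPM of at least 3, the 2 members of highest TPM, the pairs, and Prpf8, Snrnp200, Sf3b1, U2af1, U2af2, Snrnp70, Snrpb, Srsf2 and Hnrnpk, and in each list of other spliceosome genes the largest rise and fall. Some genes that this rule names are not reported here. Other members, and Smn1, were named as parts of their complex after their values were seen. Members, classes and lists were chosen with earlier results of these data known. Alternatives were DESeq2 1.42.0, limma-voom (limma 3.58.1), RLE factors, total-count scaling, a filter of 5 CPM in 4 libraries, no filter, a replicate block, other pseudocounts, and leaving out single A485 or control libraries or A485 replicates 1 and 2 or 3 and 4.

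Of the 43 members called here, 41 had the same direction with a q-value under 0.05 in the authors' deposited table, and 3 more, Hnrnpll, Hnrnpm and the untested Srsf12, passed there alone. Ddx39a and Cenatac, on the lists of other spliceosome genes, were not analysed here.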

Additional observations from a re-analysis of the deposited data

Results flagged for a closer look

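In 3 of 100 groups of 4 libraries (50 members, 2 groups each), 1 library stood further from the other 3 than Dixon's critical share of the group's range, which chance exceeds in about 1 group in 20. Hnrnpf in A485 replicate 1 stood at 685 CPM beside 489 to 508 CPM in the other treated libraries, a gap of 0.906 of the range. Lsm10 in control replicate 1 stood at 30.1 CPM beside 21.0 to 22.5 CPM (0.838). Snrpa in control replicate 1 stood at 345 CPM beside 310 to 313 CPM (0.915).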

How the results depend on the processing

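Total-count scaling gave 21 rises and 16 falls among the splicing genes in place of 12 and 31. By class it gave 4 falls for Sm and LSm genes (7), 8 rises and 11 falls for snRNP-specific genes (4 and 19), 4 rises and 0 falls for SR genes (2 and 2, none lower at an adjusted p under 0.05), and 6 rises and 1 fall for hnRNP genes (3 and 3). DESeq2 gave 5 falls of hnRNP genes. Without the filter 2 snRNP-specific genes rose, and with the 5 CPM filter 7 rose and 1 SR gene fell. Without A485 replicates 1 and 2, 12 Sm and LSm and 5 hnRNP genes fell; without replicates 3 and 4, 4 Sm and LSm genes fell, 2 snRNP-specific genes rose, and 1 SR gene rose and 1 fell. Leaving out single libraries, falls ranged from 21 to 39 over all members, 6 to 12 for Sm and LSm, 13 to 19 for snRNP-specific, 0 to 2 for SR and 2 to 6 for hnRNP genes, and rises from 10 to 12 over all, 2 to 3 for Sm and LSm, snRNP-specific and SR genes, and 3 to 4 for hnRNP genes. With a pseudocount of 1 TPM 7 pairs differed in place of 0. Apart from the fewer libraries or genes, the cause was not tested. No value changed direction while called in both settings.

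With the replicate block 10 members rose and 29 fell. Libraries with the same number deviated together with correlations of 0.005, 0.014, 0.104 and 0.067 across genes, and only numbers 3 and 4 matched their own number best. Control replicate 1 matched A485 replicate 2 best, and control replicate 2 matched A485 replicate 1. Whether replicates 1 and 2, or 3 and 4, share an origin across the groups was not tested.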
